A study of Mus musculus with 16 samples.

Results

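The prostaglandin genes described here are 9 genes taken by name from the count table: the cyclooxygenases Ptgs1 and Ptgs2, the terminal synthases Ptges, Ptges2, Ptges3 and Ptgds, the degrading enzyme Hpgd, and the receptors Ptger2 and Ptger4. They are 9 of 48440 listed genes, and all 9 were among the 17604 genes that passed the low-count filter and were tested. RNA was sequenced from the ear skin of B6 mice in 4 groups of 4 animals, 1 library per mouse. The groups were mice on a normal diet (ND) without treatment, mice on a high-fat diet (HFD) without treatment, ND mice with phorbol 12-myristate 13-acetate (PMA) on the ear, and HFD mice with PMA on the ear. The high-fat diet was given for 8 weeks, and PMA at 200 ng per ear was left for 24 hours before the ears were taken. The feeding time of the ND mice, and whether untreated ears received the solvent alone, were not given in the sources used here. PMA is a plant-derived activator of protein kinase C that is used to inflame mouse ear skin.

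Prostaglandins are lipid signals made from arachidonic acid, which phospholipases free from membranes. A cyclooxygenase, constitutive Ptgs1 or inducible Ptgs2, turns arachidonic acid into the unstable intermediate PGH2, and a terminal synthase then decides which prostaglandin is formed. In skin, prostaglandin E2 is known for its part in redness, swelling, pain and keratinocyte growth; it is taken up by a transporter, oxidised by Hpgd, and sensed by the receptors EP2 and EP4, encoded by Ptger2 and Ptger4, both of which raise cyclic AMP.

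To show the regulatory sequence next to the values, sequence before the annotated start is printed for the 2 cyclooxygenases and for the 2 synthases that rose in both diets. Sequences are from RefSeq on GRCm38.p6, 5′ to 3′ on the gene's strand. The Ptges stretch precedes the RefSeq start at 30903297, which lies inside the longer GENCODE gene span given further on, and the Ptges3 stretch, 222 bases long, stops just before the GENCODE start, short of the RefSeq start at 128058982. Capitals mark every match, on either strand, to the motifs searched: the TATA box (TATAAA), the cyclic AMP response element (CRE, TGACGTCA) and its half-site (TGACG), AP-1 (TGANTCA), NF-kB (GGNNTTNCC), the E-box (CACGTG), the GC box (GGGCGG) and C/EBP (TTNCNNAA).
Ptgs1, chr2:36230176-36230425, plus strand: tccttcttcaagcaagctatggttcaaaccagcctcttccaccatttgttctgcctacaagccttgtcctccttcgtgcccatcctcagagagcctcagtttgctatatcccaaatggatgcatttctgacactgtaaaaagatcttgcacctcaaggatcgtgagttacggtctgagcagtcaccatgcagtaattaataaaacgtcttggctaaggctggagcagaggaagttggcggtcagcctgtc
Ptgs2, chr1:150099781-150100030, plus strand: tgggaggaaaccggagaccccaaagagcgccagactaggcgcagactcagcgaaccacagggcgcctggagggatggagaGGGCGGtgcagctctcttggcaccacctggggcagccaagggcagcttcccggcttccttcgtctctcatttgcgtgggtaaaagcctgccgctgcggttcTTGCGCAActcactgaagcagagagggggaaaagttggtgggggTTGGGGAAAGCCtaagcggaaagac
Ptgs2, chr1:150100034-150100063, plus strand, 30 bases after the start: gtcaccactaCGTCACGTGgagtccgcttt
Ptges, chr2:30903298-30903547, minus strand: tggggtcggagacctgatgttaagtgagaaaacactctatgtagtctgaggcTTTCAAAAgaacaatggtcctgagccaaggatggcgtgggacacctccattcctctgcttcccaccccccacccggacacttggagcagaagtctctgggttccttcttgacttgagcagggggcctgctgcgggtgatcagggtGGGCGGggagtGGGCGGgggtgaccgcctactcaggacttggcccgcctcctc
Ptges3, chr10:128058732-128058953, plus strand: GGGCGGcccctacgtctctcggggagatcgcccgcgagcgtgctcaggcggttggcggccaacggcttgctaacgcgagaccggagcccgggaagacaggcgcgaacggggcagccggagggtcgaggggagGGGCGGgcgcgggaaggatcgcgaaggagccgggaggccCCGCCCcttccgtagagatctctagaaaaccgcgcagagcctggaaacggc
The search covered 300 bases per gene, 250 before and 50 after the RefSeq start, and positions are counted from that start. In the Ptgs2 window it found a GC box at -170, C/EBP matches at -69 and -25, an NF-kB match at -22 that overlaps the second of these, and an E-box at +17 that overlaps a CRE half-site at +14. The Ptges window held a C/EBP match at -198 and GC boxes at -53 and -42, and the Ptges3 window held GC boxes at -250, -118, -79 and +24 and a CRE half-site at +12. No match was found in the Ptgs1 window, which says only that these letters are not in it. Over 32851 RefSeq promoters of the same length, 5244 held the NF-kB motif, 13.6% the TATA box, 1.79% the full CRE, 7.81% the AP-1 motif, 7.15% the E-box, 20.8% the CRE half-site, 35.7% the GC box and 40.7% the C/EBP motif. Among the 9 genes the NF-kB motif, the TATA box and the AP-1 motif were each in 1 window, the full CRE in 0, the E-box in 2, the CRE half-site in 2, the GC box in 5 and the C/EBP motif in 6.

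On GRCm38 with GENCODE M21 gene models, Ptgs1 spans chr2:36230426-36252272 (plus strand), Ptgs2 chr1:150100031-150108227 (plus), Ptges chr2:30889471-30929863 (minus), Ptges2 chr2:32395896-32405772 (plus) and Ptges3 chr10:128058954-128077272 (plus). Ptgds spans chr2:25466709-25470046 (minus), Hpgd chr8:56294585-56321043 (plus), Ptger2 chr14:44988195-45003820 (plus) and Ptger4 chr15:5206661-5244187 (minus). Reads over exons cannot be assigned to a strand with the library kit used, and 3 of the 9 genes share exon bases with a gene on the opposite strand: Ptgs1 over 148 of 3884 bases, Ptger2 over 246 and 144 bases with 2 genes, and Ptger4 over 1015 and 82 bases with 2 genes.

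The libraries held 7739487 to 15571389 counts, and levels are given as CPM, a gene's count scaled to library size; 1 CPM stood for 7.99 to 15.6 counts. Library IDs came in 2 number series: all 4 untreated ND libraries and untreated HFD replicate 1 carry the prefix RHS, and the other libraries carry RHP. What the prefix stands for was not given. The effect of PMA in ND mice therefore cannot be told apart from a difference between the ID series, and the diet effect in untreated skin shares the problem in all but 1 library. Keratinocyte and fibroblast markers were present in every library, and of 10 growing-hair markers 9 were found in the table.

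The members called higher with PMA were prostaglandin E2 synthases, 3 in ND and 2 in HFD mice. In edgeR's quasi-likelihood test, 3 of the 9 genes were higher with PMA in ND mice (Ptges, Ptges2 and Ptges3), where 12.9% of all genes tested were called, 8.96% higher and 3.99% lower. In HFD mice 2 of 9 were higher with PMA (Ptges and Ptges3), beside 11.9% of all genes, 7.34% higher and 4.6% lower. No member was lower in either. The median log2 fold change of the 9 genes was 0.07 in ND and 0.13 in HFD mice, against 0.00 and -0.02 over all genes tested, and 6 of 9 genes in ND and 7 of 9 in HFD mice were not called. The 2 PMA comparisons use different mice, but each shares its untreated or treated groups with the diet comparisons.

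None of the 9 genes was called for diet by the same test. In untreated skin edgeR called 0 of 9, beside 3.93% of all genes (2.87% higher, 1.06% lower). An unadjusted p under 0.05 was found for 3 (Ptges, Ptges3 and Ptger4), beside 2913 of all 17604 genes tested. DESeq2 called 1, Ptges3, beside 7.55% of all genes. In PMA-treated skin edgeR called 0 of 9, beside 2.2% of all genes (0.943% higher, 1.26% lower). The 1 member with an unadjusted p under 0.05 was Ptgs2, beside 2727 of 17604 genes. DESeq2 called that member, beside 5.85% of all genes. For the diet by PMA interaction edgeR called 0 of 9, beside 0.00568% of all genes. Of the members, Ptgs1 alone had an unadjusted p under 0.05, beside 815 of 17604 genes. DESeq2 called no member, beside 0.127% of all genes. The members' median log2 fold change with diet was 0.28 in untreated and 0.18 in PMA-treated skin, against -0.02 and -0.03 over all genes.

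Groups that do not overlap were counted as well. Ptges and Ptges3 were the 2 of 9 members whose diet groups did not overlap in untreated skin, beside 12.6% of all genes, and in PMA-treated skin there were 0 of 9, beside 8.63%. With PMA the groups did not overlap for Ptges, Ptges2 and Ptges3 in ND mice, 3 of 9 beside 16.8% of all genes, and for Ptges and Ptges3 in HFD mice, 2 of 9 beside 18.8%.

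**Figure D1:**
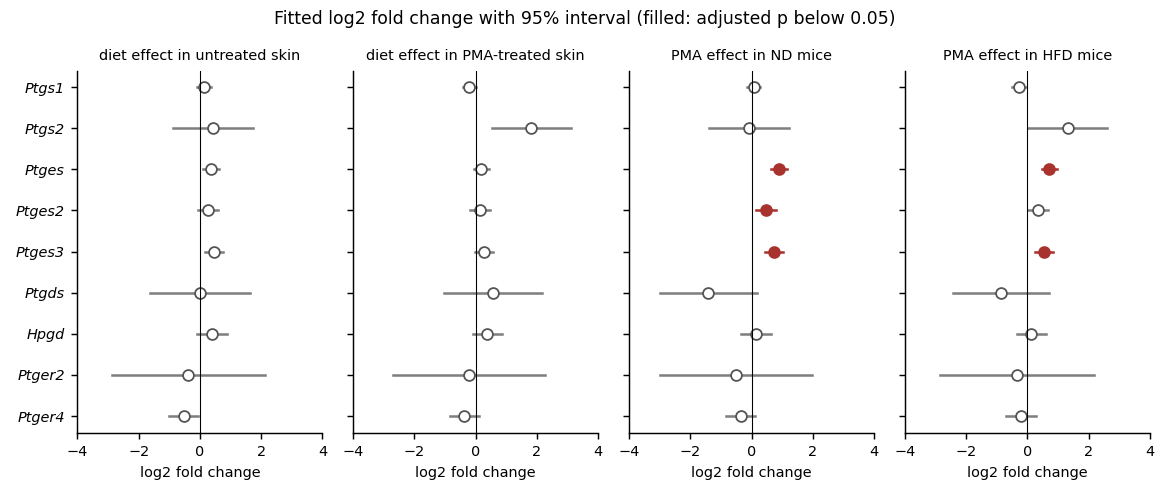
Fitted log2 fold change of each of the 9 genes in 4 comparisons (x axis), with 95% intervals as horizontal lines; filled points have an edgeR adjusted p below 0.05. The filled points are Ptges, Ptges2 and Ptges3 for PMA in ND mice and Ptges and Ptges3 for PMA in HFD mice; the intervals of Ptgs2, Ptgds and Ptger2 are the widest.

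Ptgs1, the constitutive cyclooxygenase, was the steadiest of the 9 genes. It measured 335, 319, 392 and 391 CPM in untreated ND mice, 386, 379.6, 374 and 425 CPM in untreated HFD mice, 364, 372, 373 and 394 CPM in ND mice with PMA, and 310.3, 278, 329 and 387 CPM in HFD mice with PMA. The 4 groups overlap, and the HFD group with PMA holds the 2 lowest of the 16 values. Its within-group coefficient of variation was 3.41% to 13.9%. The log2 fold change with PMA was 0.07 ± 0.11 (SE; 95% interval -0.16 to 0.29) in ND mice and -0.26 ± 0.11 (-0.49 to -0.04) in HFD mice, with edgeR adjusted p of 0.768 and 0.128. Without PMA-treated HFD replicate 4, the highest of its group, Ptgs1 was called lower in HFD mice, at -0.37 with an edgeR adjusted p of 0.0316. The 2 diets' PMA effects differed by -0.33 ± 0.15 on the log2 scale, with an edgeR adjusted p of 0.999 for the interaction.

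Ptgs2, the inducible cyclooxygenase, was the most variable of the members with enough reads to compare. It measured 9.86, 2.45, 5.37 and 2.13 CPM in untreated ND mice, 2.71, 13.4, 3.77 and 6.40 CPM in untreated HFD mice, 4.89, 9.19, 3.39 and 1.03 CPM in ND mice with PMA, and 29.02, 21.4, 5.71 and 9.89 CPM in HFD mice with PMA. The 2 highest of all 16 values are HFD mice with PMA, and the other 2 mice of that group lie within the range of the untreated groups. In PMA-treated skin the diets differed by 1.82 ± 0.62 on the log2 scale (95% interval 0.52 to 3.11, a 3.52-fold difference with bounds of 1.43 and 8.66). The edgeR adjusted p was 0.137, so the difference was not called, while DESeq2 gave 1.86 with an adjusted p of 0.0380. With PMA the log2 fold change was 1.32 ± 0.61 in HFD mice (edgeR adjusted p 0.192) and -0.07 ± 0.62 in ND mice (0.960), and the difference between these 2 effects, 1.39 ± 0.87, had an adjusted p of 0.999. With the ID series as a term these values became -1.61 ± 1.26 in ND mice and 2.67 ± 1.28 for the difference, neither of them called. Leaving out single libraries moved the diet effect in PMA-treated skin to between 1.45 and 2.44 (highest without treated ND replicate 2) and the PMA effect in HFD mice to between 0.90 (without treated replicate 1) and 1.92 (without untreated replicate 2). In untreated skin the diet effect was 0.43 ± 0.62, with an adjusted p of 0.813.

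Marker lists were looked at for keratinocytes, fibroblasts, macrophages, neutrophils, mast cells, platelets, endothelium, melanocytes, adipocytes, skeletal muscle, cartilage and growing hair. In the HFD mice with PMA only the neutrophil sums had the same order as Ptgs2. With only 4 mice to order and this many lists, such a match can arise by chance. The summed CPM of 6 markers (S100a8, S100a9, Cxcr2, Csf3r, Retnlg and Ly6g) was 1209, 716, 289 and 304 in replicates 1 to 4, the same order as Ptgs2. In the other groups the sum was 8.88 to 22.4 in untreated ND, 21.4 to 59.4 in untreated HFD and 81.8 to 255 in ND mice with PMA. There Ptgs2 did not follow the same order. The mean sum in ND mice was 13.7 without and 140 with PMA, where Ptgs2 averaged 4.95 and 4.62 CPM. Of the 5 markers tested, 4 rose with PMA in ND mice and all 5 in HFD mice. For diet in PMA-treated skin 0 were called. There 2 had an unadjusted p under 0.05, beside 2727 of 17604 genes. Ly6g, the most specific of them, was at 0 in 14 of 16 libraries and Retnlg in 8, so the sum rests mainly on S100a8, which reached 747 CPM, S100a9, Cxcr2 and Csf3r. The summed CPM of platelet markers in the HFD mice with PMA, 42.3, 35.8, 27.8 and 22.2, was also highest in replicates 1 and 2. So was that of keratinocyte markers, at 25958, 28065, 25458 and 25006. The part of any of these sets of markers in the Ptgs2 values was not tested. In bulk tissue a change in the number of cells of a type and a change in RNA per cell cannot be told apart, here and in all later results.

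**Figure D2:**
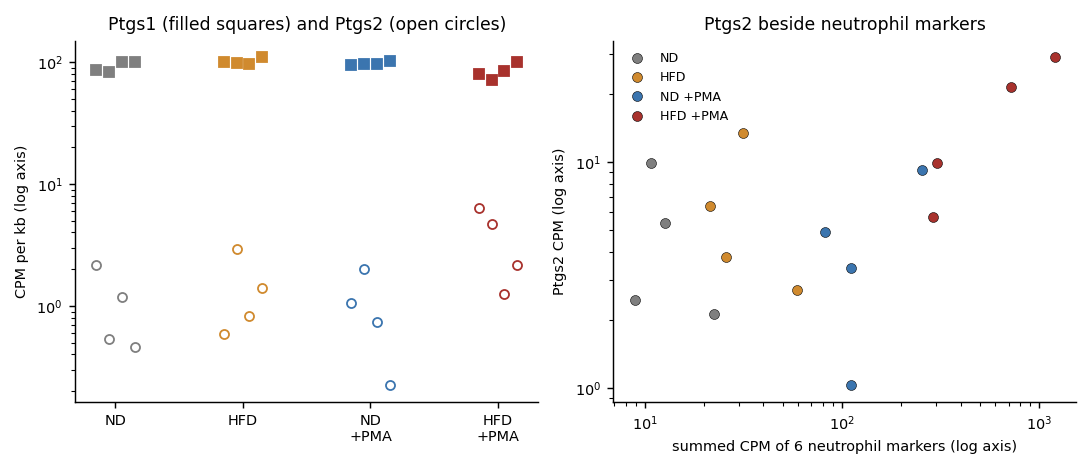
Left: CPM per kilobase of gene length (log axis) of Ptgs1 (filled squares) and Ptgs2 (open circles) in each of the 4 libraries per group. Right: Ptgs2 in CPM against the summed CPM of 6 neutrophil markers (both log axes), 1 point per library, coloured by group. Ptgs1 lies above Ptgs2 in all 16 libraries, and the 2 HFD libraries with PMA that have the highest marker sums, 716 and 1209, also have the highest Ptgs2.

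Per kilobase of gene length, the 2 cyclooxygenases were far apart in level. The ratio of Ptgs2 to Ptgs1 was 0.0119 ± 0.00917 (SD, n = 4) in untreated ND skin, 0.0143 ± 0.0108 in untreated HFD skin and 0.0106 ± 0.00787 in ND skin with PMA. It was 0.0452 ± 0.0318 in HFD skin with PMA, where the 4 mice ranged from 0.0147 to 0.0793. Ptgs1 was the higher per length in every library.

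Ptges encodes microsomal prostaglandin E synthase-1, the inducible enzyme that is usually coupled to Ptgs2, and it showed the largest called change of the 9 genes. It measured 102, 88.7, 115 and 109 CPM in untreated ND mice and 163, 229, 168 and 209 CPM in ND mice with PMA. In HFD mice it measured 140.5, 129, 139 and 122 CPM without and 212, 213, 212 and 233 CPM with PMA. Every treated value lies above every untreated value of both diets. The rise with PMA was 0.89 ± 0.12 on the log2 scale in ND mice, a 1.86-fold change (95% interval 1.56 to 2.21), with an edgeR adjusted p of 4.05e-05. In HFD mice it was 0.71 ± 0.12, a 1.64-fold change (1.38 to 1.95), with an edgeR adjusted p of 0.000535. Within the RHP libraries alone the HFD rise was 0.74 ± 0.13 (adjusted p 0.00239), and with the ID series as a model term, an estimate that rests on untreated HFD replicate 1, the ND rise was 1.01 ± 0.23 (adjusted p 0.0205).

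Untreated HFD mice also lay above untreated ND mice in Ptges without overlap, at 133 ± 8.74 against 103 ± 11.3 CPM (SD, n = 4). That difference of 0.36 ± 0.12 on the log2 scale had an edgeR adjusted p of 0.110 and was not called. In PMA-treated skin the diet difference in Ptges was 0.18 ± 0.12 (adjusted p 0.527), and the 2 groups overlap.

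Ptges3, or p23, is a cochaperone of Hsp90 that is also known as the cytosolic prostaglandin E synthase, and it rose in both diets as well. It measured 64.1, 62.8, 51.8 and 48.1 CPM in untreated ND mice and 108, 67.6, 95.9 and 107 CPM in ND mice with PMA. In HFD mice it measured 75.8, 82.9, 69.5 and 84.9 CPM without and 113, 120.3, 107 and 117 CPM with PMA. The treated and untreated mice do not overlap within either diet, and ND replicate 2 with PMA, at 67.6 CPM, is close to its untreated group. The rise was 0.74 ± 0.14 on the log2 scale in ND mice (1.67-fold, 95% interval 1.35 to 2.06, edgeR adjusted p 0.00157) and 0.55 ± 0.14 in HFD mice (1.46-fold, 1.19 to 1.80, adjusted p 0.0154). In HFD mice the call was lost without untreated replicate 3 (0.48, adjusted p 0.0617) or without treated replicate 2 (0.50, adjusted p 0.0531). In ND mice it was lost with the ID series as a term, at 0.68 ± 0.28 with an adjusted p of 0.246. The diet difference in untreated skin was 0.47 ± 0.14 with an edgeR adjusted p of 0.0798, and DESeq2 called it, with an adjusted p of 0.0324.

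Ptges2, or microsomal prostaglandin E synthase-2, moved the least of the 3 E synthases. It measured 33.5, 34.6, 41.4 and 28.8 CPM in untreated ND mice and 49.5, 58.5, 42.6 and 42.8 CPM in ND mice with PMA. In HFD mice it measured 38.6, 45.8, 42.4 and 40.5 CPM without and 54.5, 60.0, 58.0 and 40.9 CPM with PMA. The ND groups do not overlap, though the highest untreated value is 41.4 and the lowest treated 42.6 CPM; the HFD groups overlap through treated replicate 4. In ND mice the rise was 0.48 ± 0.16 on the log2 scale, with an edgeR adjusted p of 0.0472, and in HFD mice the value was 0.35 ± 0.16, with an adjusted p of 0.170. The ND call is marginal: it was lost under 8 of 9 other settings, DESeq2 included (adjusted p 0.0551), and without untreated ND replicate 1 (0.0967), 2 (0.122) or 4 (0.138) or treated ND replicate 1 (0.0924) or 2 (0.189).

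For none of the E synthases did the test of the difference between diets in the PMA effect pass. The interaction was -0.18 ± 0.17 for Ptges, -0.13 ± 0.22 for Ptges2 and -0.19 ± 0.20 for Ptges3, each with an edgeR adjusted p of 0.999. The 95% intervals of the interaction, -0.53 to 0.17, -0.60 to 0.33 and -0.62 to 0.23, leave room for differences in either direction.

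**Figure D3:**
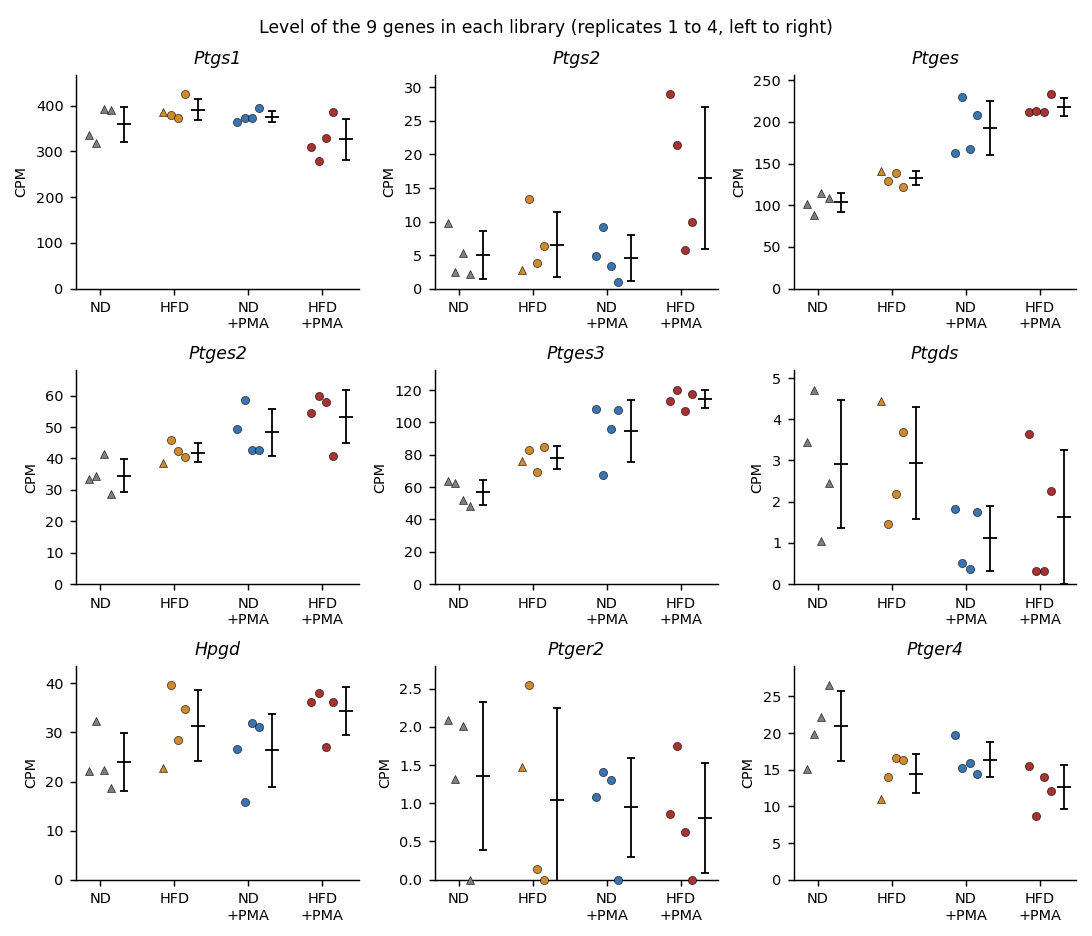
CPM of the 9 genes (y axis, from 0) in each library, by group; within a group replicates 1 to 4 run from left to right, triangles are RHS and circles RHP libraries, and the bar beside them is the mean ± SD of 4. For Ptges and Ptges3 all PMA-treated points lie above the untreated points of the same diet, whereas Ptgs2, Ptgds and Ptger2 spread widely within groups.

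Keratinocyte marker levels are given beside those of the E synthases. The summed CPM of Krt5, Krt14, Krt1, Krt10 and Trp63 ranged from 12016 to 16216 in untreated ND, 18891 to 23136 in untreated HFD, 19460 to 22792 in ND with PMA and 25006 to 28065 in HFD with PMA. Of these 5, PMA raised 3 in ND mice, and in HFD mice 1 rose (Krt14) and 1 fell (Krt10); 4 were higher with diet in untreated skin, and 1, Krt1, in PMA-treated skin. The sum of 6 fibroblast markers ran the other way, at 8620 to 10974, 5569 to 6579, 6302 to 8869 and 3788 to 5995 CPM in the same order of groups. Their part in the synthase values was not tested.

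Ptgds, the lipocalin-type prostaglandin D synthase, was too sparse for a firm comparison, with 4 to 50 counts per library. It averaged 2.92 ± 1.55 CPM in untreated ND mice, 2.94 ± 1.36 in untreated HFD mice, 1.11 ± 0.780 in ND mice with PMA and 1.63 ± 1.63 in HFD mice with PMA (SD, n = 4). With PMA the log2 fold change was -1.41 ± 0.77 in ND mice (edgeR adjusted p 0.268) and -0.85 ± 0.75 in HFD mice (adjusted p 0.552). The HFD group with PMA was split, with 3.65 and 2.25 CPM in replicates 1 and 4 and 0.317 and 0.313 CPM in replicates 2 and 3.

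Hpgd encodes the dehydrogenase that begins the inactivation of prostaglandin E2, and it passed no test. It measured 22.2, 32.4, 22.3 and 18.7 CPM in untreated ND mice, 22.8, 39.7, 28.5 and 34.7 CPM in untreated HFD mice, 26.6, 15.9, 32.0 and 31.1 CPM in ND mice with PMA, and 36.2, 38.0, 27.0 and 36.2 CPM in HFD mice with PMA. The groups overlap in all 4 comparisons. The log2 fold change with PMA was 0.14 ± 0.23 (95% interval -0.34 to 0.62) in ND and 0.13 ± 0.23 (-0.35 to 0.60) in HFD mice, so a change as large as that of Ptges in HFD mice lies outside both intervals. With diet it was 0.40 ± 0.23 in untreated and 0.38 ± 0.23 in PMA-treated skin, with edgeR adjusted p of 0.415 and 0.457. Per kilobase, the ratio of Ptges to Hpgd was 1.96 ± 0.567 and 1.90 ± 0.574 in untreated ND and HFD skin (SD, n = 4). With PMA it was 3.48 ± 1.82 and 2.75 ± 0.427. In ND mice with PMA, replicate 2 was at 6.19 and the others at 2.25 to 2.87. Treated and untreated ratios overlapped in both diets.

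Of the 2 receptors, Ptger4 had 89 to 239 counts per library and Ptger2 was near the detection limit. Ptger4 shares 1015 and 82 of its 6648 exon bases with genes on the opposite strand, so some of its reads may be theirs. Ptger4, which encodes the EP4 receptor, measured 15.2, 19.8, 22.2 and 26.6 CPM in untreated ND mice and 11.0, 14.0, 16.6 and 16.4 CPM in untreated HFD mice. With PMA it measured 19.8, 15.3, 15.9 and 14.5 CPM in ND mice and 15.6, 8.73, 14.1 and 12.1 CPM in HFD mice. All 4 fitted values were negative, from -0.53 ± 0.23 for diet in untreated skin to -0.20 ± 0.23 for PMA in HFD mice. They share the same 4 groups and are not independent. None was called, and the lowest edgeR adjusted p was 0.240. The groups overlap in each comparison.

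Ptger2, which encodes the EP2 receptor, had 0 counts in 4 libraries and fewer than 10 in 7. It averaged 1.36 ± 0.969, 1.04 ± 1.20, 0.947 ± 0.647 and 0.809 ± 0.723 CPM in untreated ND, untreated HFD, ND with PMA and HFD with PMA (SD, n = 4). Where it was at 0, a count of 0 allows up to 3 counts, or 0.308 to 0.376 CPM in these libraries, counting error only. The standard errors of its log2 fold changes, 1.19 to 1.20, are larger than every fitted value, so no difference could be told from the spread. The libraries at 0 were replicate 4 of each group. With a replicate block the standard errors were 0.92 to 0.96, and no value was called.

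Ranked per kilobase over all 16 libraries, Ptgs1 led at 93.5 CPM per kb, followed by Ptges at 41.1, Ptges3 at 38.8, Hpgd at 17.2 and Ptges2 at 8.80. Ptger4 followed at 2.42, Ptgs2 at 1.78, Ptgds at 1.31 and Ptger2 at 0.282 CPM per kb. Ptgs1 was above Ptges, Ptges3 above Hpgd, and Ptges2 above Ptger4 in all 16 libraries, and Hpgd was above Ptges2 in 15. Ptges and Ptges3 cannot be ordered, since Ptges was the higher in 9 of 16, and the same holds for Ptgs2 and Ptgds, also 9 of 16; Ptger4 was above Ptgs2 in 12. In HFD mice with PMA that last order was reversed, with group means of 3.601 CPM per kb for Ptgs2 and 1.90 for Ptger4 and Ptgs2 the higher in 3 of 4 mice. In group means, Ptges rose from 26.3 CPM per kb in untreated ND to 48.9 with PMA and from 33.7 to 55.3 in HFD mice.

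Of 15 phospholipase and lipase genes listed under arachidonic acid release, 13 were tested. Whether their products release arachidonic acid in this tissue was not measured. With PMA 3 rose and 1 fell in ND mice, and 2 rose and 3 fell in HFD mice. Over all genes tested, 8.96% rose and 3.99% fell in ND mice, and 7.34% rose and 4.6% fell in HFD mice. With diet 1 rose in untreated and 1 in PMA-treated skin, beside 2.87% and 0.943% of all genes. The list's median log2 fold change was 0.09 and -0.05 with PMA in ND and HFD mice and 0.32 and -0.12 with diet in untreated and PMA-treated skin. Pla2g4e, a member of the group IV phospholipases A2, was the 1 gene called in all 4 comparisons. It measured 47.7, 40.5, 31.0 and 33.9 CPM in untreated ND mice, 102, 91.3, 62.4 and 50.4 CPM in untreated HFD mice, 72.4, 95.9, 113 and 87.5 CPM in ND mice with PMA, and 204, 235, 159 and 162 CPM in HFD mice with PMA. Its groups did not overlap in any of the 4 comparisons, as was so for 8.63% to 18.8% of all genes tested in each. The log2 fold change was 1.00 ± 0.21 with diet in untreated skin (edgeR adjusted p 0.00827) and 1.04 ± 0.20 in PMA-treated skin (0.0103). With PMA it was 1.27 ± 0.21 in ND mice (0.000294) and 1.31 ± 0.20 in HFD mice (0.000286). Those calls held under each alternative run, including without any 1 library. Pla2g4e shares 153 of its 6960 exon bases with a gene on the same strand, and 13 of the 36 pathway genes share exon bases with another gene.

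Other phospholipases were called in 1 or both diets, some higher and some lower, and no gene of the list was called for the interaction. Pla2g4f, also of group IV, rose with PMA in ND mice from 185 ± 36.0 to 308 ± 25.4 CPM (SD, n = 4; 0.74 ± 0.12 log2, edgeR adjusted p 0.00037), and Pla2g4d rose in HFD mice from 1.63 ± 1.01 to 8.79 ± 3.16 CPM (2.45 ± 0.64, adjusted p 0.0158). In the other diet both had positive values that were not called and groups that did not overlap. The values were 0.36 ± 0.12 for Pla2g4f in HFD mice (edgeR adjusted p 0.0593) and 1.73 ± 0.65 for Pla2g4d in ND mice (0.0889). Over all genes tested, groups did not overlap with PMA for 18.8% in HFD and 16.8% in ND mice. The Pla2g4f call was lost with the ID series as a term (adjusted p 0.0991) and the Pla2g4d call without untreated HFD replicate 3 (0.0511). The secreted phospholipase Pla2g5 fell with PMA in both diets, by 0.77 ± 0.25 in ND mice (adjusted p 0.0499) and by 0.94 ± 0.25 in HFD mice (adjusted p 0.0192). Pla2g2d, another secreted enzyme, rose in ND mice by 1.11 ± 0.35 (adjusted p 0.0393), and its value in HFD mice was 0.99 ± 0.35 (adjusted p 0.0675). Mgll, the lipase that breaks down the endocannabinoid 2-arachidonoylglycerol and so frees arachidonic acid, fell with PMA in HFD mice from 484 ± 57.1 to 230.1 ± 62.1 CPM, by 1.07 ± 0.20 on the log2 scale (adjusted p 0.00111); in ND mice the value was -0.53 ± 0.19 (adjusted p 0.0811). Adipocyte markers were lower in the same comparisons: the summed CPM of 5 was 233 to 389 in untreated HFD and 124 to 191 in HFD mice with PMA, and 386 to 549.6 and 178 to 343 in ND mice, with 4 of 5 called lower with PMA in each diet. In untreated skin the mean adipocyte sum was lower in HFD than in ND mice, at 292 against 463 CPM. Mgll there measured 390, 531, 323 and 266 CPM in ND mice and 539, 512, 480 and 407 CPM in HFD mice. Cartilage sums were also lower with PMA in HFD mice, at 84.9 to 138 against 161 to 232 CPM. The part of these markers in the Mgll values was not tested. The fifth call in HFD mice was Pla2g2f, the abundant epidermal secreted phospholipase, named here after its value was seen: 711 ± 34.9 CPM without and 532 ± 47.2 CPM with PMA (adjusted p 0.0330).

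Single libraries decided several of these smaller calls. The Pla2g5 call in ND mice was lost without untreated replicate 2, 3 or 4 or treated replicate 1, 2 or 3 (adjusted p 0.0606 to 0.147), and in HFD mice without untreated replicate 2 or 4 or treated replicate 1 (0.0541 to 0.0655). That of Pla2g2d was lost without untreated ND replicate 1, 3 or 4 or treated ND replicate 1, 2 or 4 (0.0638 to 0.117). That of Pla2g2f was lost without untreated HFD replicate 1, 3 or 4 or treated HFD replicate 1, 2 or 3 (0.0618 to 0.113). The Mgll call held without any 1 library.

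Among 8 genes listed as other prostanoid synthases, all tested, 2 rose with PMA in each diet and 0 fell. Over all genes tested, 8.96% rose and 3.99% fell in ND mice, and 7.34% rose and 4.6% fell in HFD mice. With diet, 3.93% of all genes were called in untreated and 2.2% in PMA-treated skin. The 2 that rose, Akr1b8 and Akr1c18, are aldo-keto reductases with close paralogues, and how reads shared among paralogues were counted was not given. Whether their products form prostaglandins in this tissue was not measured. Akr1b8 averaged 9.80 ± 5.53 CPM in untreated ND mice and 32.2 ± 0.492 with PMA, and 12.7 ± 2.54 and 49.4 ± 11.7 in HFD mice; it rose by 1.72 ± 0.30 in ND (edgeR adjusted p 0.000489) and 1.95 ± 0.29 in HFD mice (0.000204). Akr1c18 averaged 6.25 ± 3.98 and 16.7 ± 6.41 CPM in ND mice and 8.57 ± 2.90 and 19.6 ± 4.96 in HFD mice without and with PMA, and rose by 1.41 ± 0.38 (0.0164) and 1.20 ± 0.37 (0.0410). The Akr1c18 call was lost in ND mice without untreated replicate 1, 3 or 4 or treated replicate 3 (0.0521 to 0.0635) and in HFD mice without untreated replicate 2, 3 or 4 or treated replicate 1, 2 or 3 (0.0589 to 0.153); with the ID series as a term the ND calls of both genes were lost (Akr1b8 0.0535, Akr1c18 0.0967). With diet in untreated skin 1 of the 8 rose, Prxl2b, a prostamide and prostaglandin F synthase, from 52.7 ± 5.96 to 77.5 ± 7.58 CPM (0.55 ± 0.15, adjusted p 0.0471). That call was lost without any 1 of untreated ND replicates 1, 3 and 4 or of the 4 untreated HFD replicates (0.0599 to 0.146). In PMA-treated skin 0 of 8 were called for diet; the 2 lowest p belonged to Akr1b8 (0.62 ± 0.28, adjusted p 0.288) and Tbxas1, the thromboxane synthase (-0.73 ± 0.39, adjusted p 0.387).

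Diet calls were found among the genes of transport and breakdown, where 6 of 6 were tested and PMA gave 0 calls in either diet (3 and 0 at an unadjusted p under 0.05 in ND and HFD mice; without untreated ND replicate 1, Cbr3 was called higher in ND mice). With diet 3 of 6 were called in untreated and 2 of 6 in PMA-treated skin, beside 3.93% and 2.2% of all genes tested. With PMA 12.9% of all genes were called in ND and 11.9% in HFD mice. An unadjusted p under 0.05 was found for 4479 and 4232 of 17604 genes. Slco2a1, the transporter that takes prostaglandins into cells for inactivation, was lower in HFD mice in both conditions. It measured 62.6, 59.6, 74.5 and 72.8 CPM in untreated ND mice and 41.3, 45.4, 37.1 and 58.0 CPM in untreated HFD mice. With PMA it measured 75.5, 97.7, 89.8 and 75.4 CPM in ND and 58.6, 46.9, 57.0 and 40.7 CPM in HFD mice. The diets do not overlap in either condition, as was so for 12.6% of all genes in untreated and 8.63% in PMA-treated skin. It fell by 0.57 ± 0.16 on the log2 scale in untreated skin (edgeR adjusted p 0.0485) and by 0.74 ± 0.16 in PMA-treated skin (0.0174). The summed CPM of 5 endothelial markers was also lower in HFD mice, at 92.2 to 131 in untreated ND against 48.5 to 89.9 in untreated HFD, and 76.3 to 137 against 68.6 to 85.0 with PMA. None of the 5 was called for diet by edgeR. At an unadjusted p under 0.05 there were 1 and 3, beside 2913 and 2727 of 17604 genes. Fibroblast markers were called lower with diet, 4 of 6 in untreated and 3 of 6 in PMA-treated skin. So were 1 and 2 of 7 macrophage, 1 and 1 of 5 adipocyte and 0 and 4 of 5 cartilage markers. Called higher were 4 and 1 of 5 keratinocyte and 1 and 0 of 5 neutrophil markers. The part of any of these in the Slco2a1 values was not tested. Ptgr1, a prostaglandin reductase that acts after Hpgd, was higher in HFD mice in both: 100.1 ± 4.59 against 60.8 ± 12.6 CPM untreated (0.72 ± 0.14, adjusted p 0.00611) and 82.4 ± 6.36 against 54.6 ± 7.19 CPM with PMA (0.59 ± 0.14, adjusted p 0.0306). Cbr3, a carbonyl reductase, was higher in untreated HFD skin, at 33.2 ± 5.77 against 18.7 ± 4.59 CPM (0.83 ± 0.19, adjusted p 0.0181).

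Growing-hair markers differed between the diets too: the summed CPM of 9 was 35.2 to 70.8 in untreated ND and 94.4 to 2324 in untreated HFD mice, and 24.9 to 147 and 71.1 to 2954 with PMA. None of the 9 was called for diet by edgeR. At an unadjusted p under 0.05 there were 8 and 7, beside 2913 and 2727 of 17604 genes. The part of these markers in the diet calls of Pla2g4e, Prxl2b, Slco2a1, Ptgr1 and Cbr3 was not tested.

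The diet calls of transport and breakdown genes also leaned on single libraries. In untreated skin the Slco2a1 call was lost without any 1 of the 4 ND replicates or of HFD replicates 1, 2 and 3 (adjusted p 0.0539 to 0.174), and that of Cbr3 without ND replicate 3 or 4 or HFD replicate 1 (0.0560 to 0.0694). In PMA-treated skin the Slco2a1 call was lost without ND replicate 2 or 3 or HFD replicate 2 or 4 (0.0530 to 0.0821), and that of Ptgr1 without ND replicate 3 or 4 or HFD replicate 2 or 4 (0.0676 to 0.0989). The Ptgr1 call in untreated skin held without any 1 library and was lost with the ID series as a term (0.193).

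None of the other prostanoid receptors was called in any comparison, with 6 of 7 tested. Without treated ND replicate 2, 1 receptor gene was called for PMA in ND mice, Ptger3, lower. At an unadjusted p under 0.05 there were 1 and 2 for diet in untreated and PMA-treated skin and 1 and 1 for PMA in ND and HFD mice. Over all 17604 genes tested these numbers were 2913, 2727, 4479 and 4232. The largest fitted values were those of Ptgdr, the receptor of prostaglandin D2, with diet: -2.78 ± 0.96 in untreated skin (edgeR adjusted p 0.120) and -3.88 ± 1.09 in PMA-treated skin (0.0657). Ptgdr had at most 25 counts in any library, and 0 to 7 in untreated and 0 to 2 in PMA-treated HFD mice. Ptger3, the EP3 receptor, which lowers cyclic AMP, had 18.9 ± 2.43 CPM in untreated ND and 11.8 ± 4.18 CPM with PMA (-0.67 ± 0.26, adjusted p 0.103), and 17.1 ± 2.47 and 11.1 ± 3.26 CPM in HFD mice (-0.63 ± 0.26, adjusted p 0.138).

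**Figure D4:**
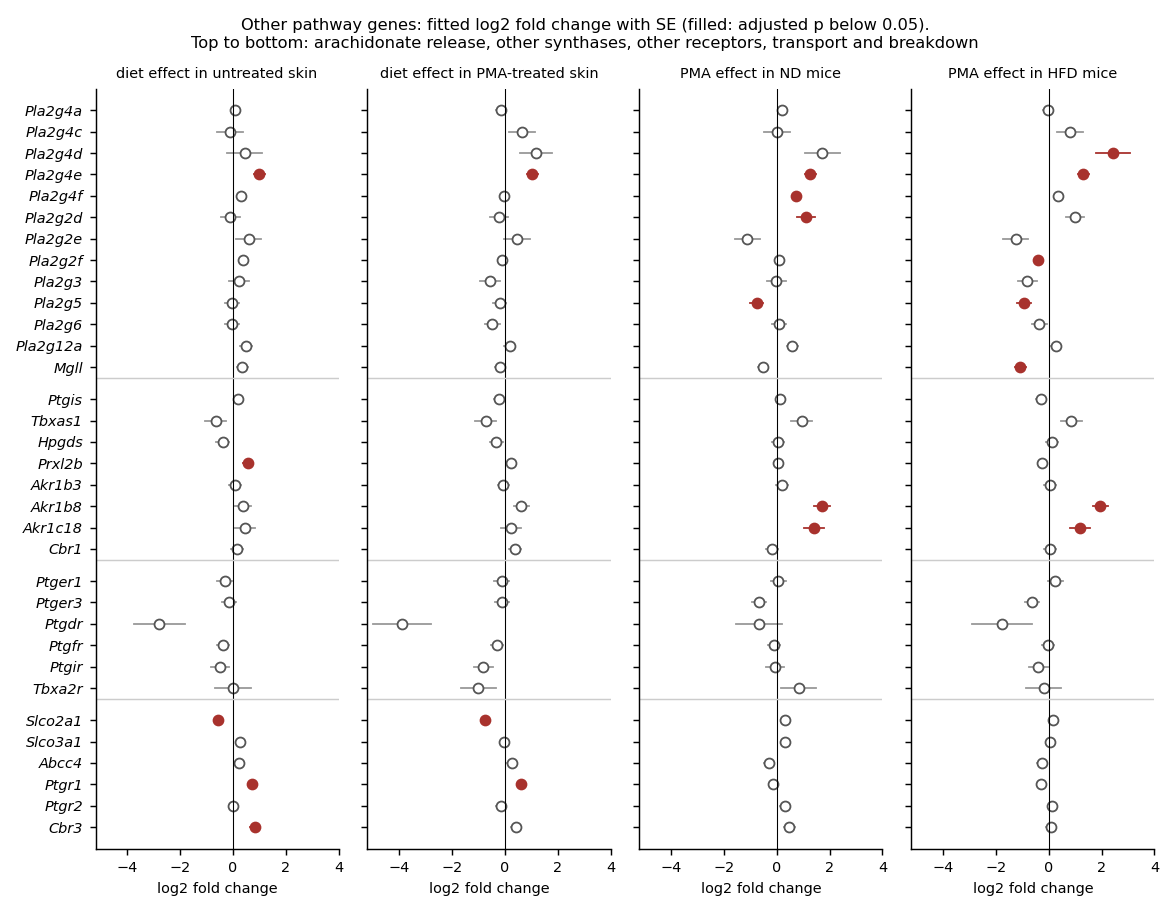
Fitted log2 fold change (x axis, with SE) of the 33 other pathway genes tested, 1 panel per comparison; filled points have an edgeR adjusted p below 0.05. Pla2g4e is filled in all 4 panels, the PMA panels add Akr1b8 and Akr1c18, and Slco2a1 (lower) and Ptgr1 (higher) are filled in the 2 diet panels.

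The genes whose pattern over the 16 libraries was most like each member were found among 11554 candidates (11555 for Ptgds and Ptger2), by the root-mean-square difference of log2 CPM after each gene was centred on its own mean. For Ptges they were Rnpep (0.128), Grwd1 (0.172) and Egln1 (0.173), where the median candidate was at 0.558. For Ptges3 they were Eif2s1 (0.1002), Uchl5 (0.111) and Cct8 (0.135), and for Ptges2 they were Capzb (0.101), Bax (0.127) and Cdc37 (0.138). For Ptgs1 they were Sipa1l1 (0.0979), Mat2a (0.102) and Ptdss1 (0.106). A gene that did not change at all would lie at the member's own SD. That SD was 0.446 for Ptges, 0.414 for Ptges3, 0.292 for Ptges2 and 0.154 for Ptgs1. For Ptgs2, with an SD of 1.18, the distances were larger. Marcksl1 was at 0.832, Noct at 0.854 and Fosl1 at 0.856, against a median of 1.24. Near Hpgd were Epb41l5 (0.189) and Eif2a (0.202), and nearest to Ptger4 were Samd4 (0.188), Tgfbr3 (0.199) and Rgmb (0.207). For the 2 sparse genes the distances were large, with Chst3 (0.628), Krtap3-2 (0.667) and Tfap2e (0.727) nearest to Ptgds and Csdc2 (1.07), Rfx3 (1.08) and Lrrc56 (1.11) nearest to Ptger2.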

How the data were processed

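Ear skin of 16 mice (4 groups of 4) was measured by RNA sequencing of SMARTSeq libraries, which do not mark strand. The deposited table holds raw read counts per gene, with a gene length; per the submitters' processing notes the authors used STAR 2.3, featureCounts 1.5 and GRCm38 (mm10), and the roles and settings were not given in the sources used here. No row lacked a gene name. The 9 genes and all gene lists were chosen with earlier results of these data known. From the deposited counts, edgeR 4.0.16 in R 4.3.3 fitted the 4 group means over all 16 libraries (TMM scaling, filterByExpr with a minimum count of 10 and total of 15, robust quasi-likelihood), with Benjamini-Hochberg adjustment over 17604 genes and calls below 0.05. CPM used TMM-scaled totals; log2 CPM used a prior count of 2. Of each pathway list and comparison the text names up to 4 called genes of at least 5 mean CPM with the largest change, or, where none was called, the 2 with the smallest p; for likeness, the 3 nearest genes, of which 1 is not reported here. The table's symbol Fam213b was read as Prxl2b. The smallest chi-square per degree of freedom between libraries of 1 group was 9.68, so no library was counted as a copy. Replicate numbers were not taken to pair the mice, since the labels name no pairing. Deviations of same-numbered libraries correlated by -0.067 to 0.202 (median 0.0129), and 2 of 24 pairs exceeded 0.1. Of the 16 libraries, 8 correlated best with their own number, more than an even draw over the 4 numbers would give. In every group the totals of replicates 2 and 3 exceeded those of replicates 1 and 4. Whether the numbers mark something shared was not given. Alternatives were DESeq2 1.42.0, other scaling and filters, a replicate block, the ID series, mitochondrial genes left out, the 8 libraries compared alone, and each library left out. The model code was tested on simulated data.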

Additional observations from a re-analysis of the deposited data

Results flagged for a closer look

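In 36 sets of 4 libraries (9 genes in 4 groups), 2 had a library that stood apart by Dixon's test, where chance gives about 1 in 20. Hpgd in HFD mice with PMA was lowest in replicate 3, at 27.0 CPM, with the other mice at 36.2 to 38.0 CPM. Ptges in HFD mice with PMA was highest in replicate 4, at 233 CPM, with the others at 212 to 213 CPM; the gap is wide only beside the closeness of those 3 values, and the Ptges call held without that library.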

How the results depend on the processing

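Of 836 recomputed values, 770 kept their direction and side of the threshold, 16 fell short of it, 3 newly passed and 47 changed sign. With DESeq2, 1 member was called for diet in untreated skin and 1 in PMA-treated skin. With the ID series as a term, 1 was called for PMA in ND mice (Ptges). Leaving out single libraries gave 1 to 3 members called for PMA in HFD mice. The replicate block changed no member's call, with 3 called for PMA in ND and 2 in HFD mice; it lost Prxl2b (0.0711) and Slco2a1 (0.0802) in untreated skin and Akr1c18 in HFD mice (0.0551), and 8 of 16 libraries correlated best with their own number. The Ptges rise ranged from 0.76 to 0.97 in ND and from 0.66 to 0.74 in HFD mice over single libraries left out. Sign changes touched uncalled values. With the ID series as a term the diet effect in untreated skin was -0.86 for Ptgs2, -0.0674 for Hpgd and 0.12 for Ptger2, the PMA effect in ND mice -0.45 for Hpgd and 0.20 for Ptger2, and the interaction -0.0483 for Ptgds, 0.45 for Hpgd and -0.34 for Ptger2. For Ptgds in untreated skin, upper-quartile scaling gave -0.0128 and the block -0.0734. The Hpgd interaction was 0.0264 with size factors, 0.0264 with DESeq2, 0.0120 with upper-quartile scaling, 0.0123 with no filter, 0.0104 with the strict filter and 0.0163 without mitochondrial genes. Over single libraries left out, the diet effect in untreated skin ran from -0.19 to 0.99 for Ptgs2, -0.27 to 0.36 for Ptgds and -1.36 to 0.0312 for Ptger2; in PMA-treated skin from -0.20 to 0.94 for Ptgds and -0.88 to 0.19 for Ptger2. The PMA effect ran from -0.0228 to 0.11 for Ptgs1 and -0.69 to 0.49 for Ptgs2 in ND mice and from -1.04 to 0.63 for Ptger2 in HFD mice. The interaction ran from -0.22 to 0.0027 for Ptges2, -0.22 to 0.93 for Ptgds, -0.17 to 0.15 for Hpgd and -0.51 to 1.16 for Ptger2. Over all settings the called arachidonate genes numbered 1 to 6 with PMA in ND and 3 to 6 in HFD mice, against 4 and 5. The other synthases called numbered 0 to 2 with PMA in ND and 1 to 2 in HFD mice, against 2 and 2, and 0 to 1 with diet in untreated skin, against 1; genes of transport and breakdown numbered 1 to 3 and 0 to 2 with diet in untreated and PMA-treated skin, against 3 and 2. With PMA in ND mice 0 to 1 other receptors and 0 to 1 transport and breakdown genes were called, against 0 and 0. Of all genes DESeq2 called 7.55% and 5.85% for diet, against 3.93% and 2.2%, and with the ID series as a term 1.02% were called for diet in untreated skin and 2.57% for PMA in ND mice. The strict filter of 5 CPM in 4 libraries left out Ptgds and Ptger2; their low counts limit what can be seen. The cause of the changes was not tested.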

Other observations

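Ptger2 had 0 counts in replicate 4 of all 4 groups and in no other library. The totals of those 4 libraries, 8169249 to 10009822 counts, were within the range of the others. The lowest nonzero value was 0.145 CPM, in untreated HFD replicate 3.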
